A study of Rattus norvegicus with 25 samples.

Results

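Microglia are the resident immune cells of the brain and macrophages are their relatives in the meninges and around vessels. A list of 36 genes known to mark them was followed across the RNA-seq libraries of 25 lesioned rats. The genes were chosen by symbol, and 35 of the 36 were found among the 28909 gene names of the count table. Itgam was not analysed here. All 35 passed the filter on low counts and were tested among 14142 genes. They were sorted by role into homeostatic microglia genes, transcription factors, complement, immune receptors and adaptors, lysosome and phagosome, NADPH oxidase, leukocyte signalling and cytoskeleton, border macrophage, and injury-associated genes.

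Every animal was a female Sprague Dawley rat whose nigrostriatal dopamine pathway had been lesioned with the toxin 6-OHDA, and every animal received levodopa at 6 mg/kg once a day. The 3 arms were levodopa alone (5 rats), levodopa with trapidil at 7.5 mg/kg (10 rats) and levodopa with trapidil at 15 mg/kg (10 rats), with 2 trapidil doses a day. Trapidil is a vasodilator and antiplatelet drug known to oppose platelet-derived growth factor. Dosing ran for 14 days, and the striatum on the lesioned side was taken on day 15, around 1 hour after a dose by the study's design. Ages were not given, and tissue without a lesion or without levodopa was not analysed here.

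Microglia depend on the receptor CSF1R for survival and on the transcription factors PU.1, encoded by Spi1, and IRF8 for their identity. At rest they survey the tissue through receptors such as P2RY12, CX3CR1 and TREM2. After injury they and invading macrophages take up debris, tag synapses and dying cells with complement, and can switch on genes such as Spp1, Gpnmb and Lgals3. In a bulk tissue library, fewer cells of a type and less RNA per cell cannot be told apart.

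PU.1 is known to bind the purine-rich core GAGGAA, and a PU.1 and IRF8 pair binds a composite of GGAA, any 2 bases and GAAA. Of the 35 genes, 24 had an entry in the RefSeq promoter set of the GRCr8 build. Within the 250 bases before the start, on either strand, GAGGAA was present in 13 of the 24 (54.2%), against 23.2% of 27457 rat promoters. The composite was present in 3 of the 24 (12.5%), against 2.43% of all promoters. A match shows the letters and not a bound site. The promoters below are shown because they belong to both genes that fell at 15 mg/kg (Gpr34, chrX:11785837-11786086, minus strand, and Lyz2, chr7:54798012-54798261, minus strand), to the member that followed Csf1r most closely (Laptm5, chr5:148371630-148371879, plus strand) and to a pair of injury-associated genes (Gpnmb, chr4:79340878-79341127, plus strand, and Spp1, chr14:5619805-5620054, minus strand). Capitals mark GAGGAA or its complement TTCCTC, and in Gpnmb the composite that overlaps it. Sequences run 5′ to 3′ on the gene's strand and end at the base before the start.
Gpr34: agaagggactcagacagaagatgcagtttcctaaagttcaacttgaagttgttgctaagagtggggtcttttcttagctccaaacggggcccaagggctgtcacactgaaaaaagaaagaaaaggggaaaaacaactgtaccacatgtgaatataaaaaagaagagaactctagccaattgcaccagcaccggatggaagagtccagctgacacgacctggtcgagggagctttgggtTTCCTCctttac
Lyz2: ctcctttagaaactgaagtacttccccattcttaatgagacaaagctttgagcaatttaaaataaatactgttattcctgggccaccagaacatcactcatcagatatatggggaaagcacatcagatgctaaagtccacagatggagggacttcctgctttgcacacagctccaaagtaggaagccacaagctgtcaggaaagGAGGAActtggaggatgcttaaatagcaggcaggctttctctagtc
Laptm5: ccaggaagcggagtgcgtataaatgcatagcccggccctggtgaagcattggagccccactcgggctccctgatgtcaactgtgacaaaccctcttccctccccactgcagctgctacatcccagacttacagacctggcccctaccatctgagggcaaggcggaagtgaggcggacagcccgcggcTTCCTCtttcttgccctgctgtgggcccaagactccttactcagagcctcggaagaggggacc
Gpnmb: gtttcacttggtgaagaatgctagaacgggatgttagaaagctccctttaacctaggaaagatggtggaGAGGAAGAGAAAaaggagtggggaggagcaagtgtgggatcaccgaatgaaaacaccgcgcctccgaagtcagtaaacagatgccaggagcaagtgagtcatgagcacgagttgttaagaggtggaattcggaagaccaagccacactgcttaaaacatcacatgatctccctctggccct
Spp1: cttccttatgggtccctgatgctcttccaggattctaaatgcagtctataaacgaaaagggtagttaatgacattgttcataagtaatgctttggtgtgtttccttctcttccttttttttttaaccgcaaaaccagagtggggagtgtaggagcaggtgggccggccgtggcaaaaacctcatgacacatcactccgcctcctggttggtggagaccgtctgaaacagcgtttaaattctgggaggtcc
The core lay 12 bases before the start in Gpr34, 46 in Lyz2, 63 in Laptm5 and 181 in Gpnmb. The Spp1 window held neither motif.

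Library totals ran from 10838513 to 20532290 reads, and the members together took 0.0788% to 0.149% of them (11796 to 25594 reads). Levels are given as CPM, read counts scaled to library size with TMM factors, and are compared for the same gene between animals. One library stood apart. Levodopa replicate 2 had the highest level of the 25 libraries for 17 of the 35 members, against 19.7% of all tested genes. It also had the highest summed markers of oligodendrocytes, astrocytes, endothelial cells and pericytes, the lowest summed markers of spiny projection neurons (9218 CPM, against 11905 to 16090 CPM in the other 24) and the highest mitochondrial share (17.3%, range over libraries 7.62% to 17.3%). Fold changes below that moved by over 1.5 times when it was left out are given both ways. All comparisons with levodopa alone share the same 5 libraries.

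At 15 mg/kg, 2 members fell relative to levodopa alone. Gpr34, a lysophospholipid receptor of microglia, fell by 32.4%. Lyz2, the macrophage lysozyme, fell by 28.2%. No member rose. These 2 of 35 stand against 1.00% of all tested genes called lower and 1.31% called in either direction (edgeR's quasi-likelihood test, adjusted p below 0.05). The fold changes of 32 of the 35 lay below 0, against 49.8% of all genes, with a median log2 fold change of -0.33 (all genes 0.00). The 18 members with an unadjusted p below 0.05 were all lower, against 11.2% of all genes. Without levodopa replicate 2 the median was -0.18, 26 of 35 lay below 0 and 0 members passed, so neither call was kept without that animal. Of all 14201 genes tested in that fit, 20 passed. The share of all genes below 0 was not computed for it.

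**Figure D1:**
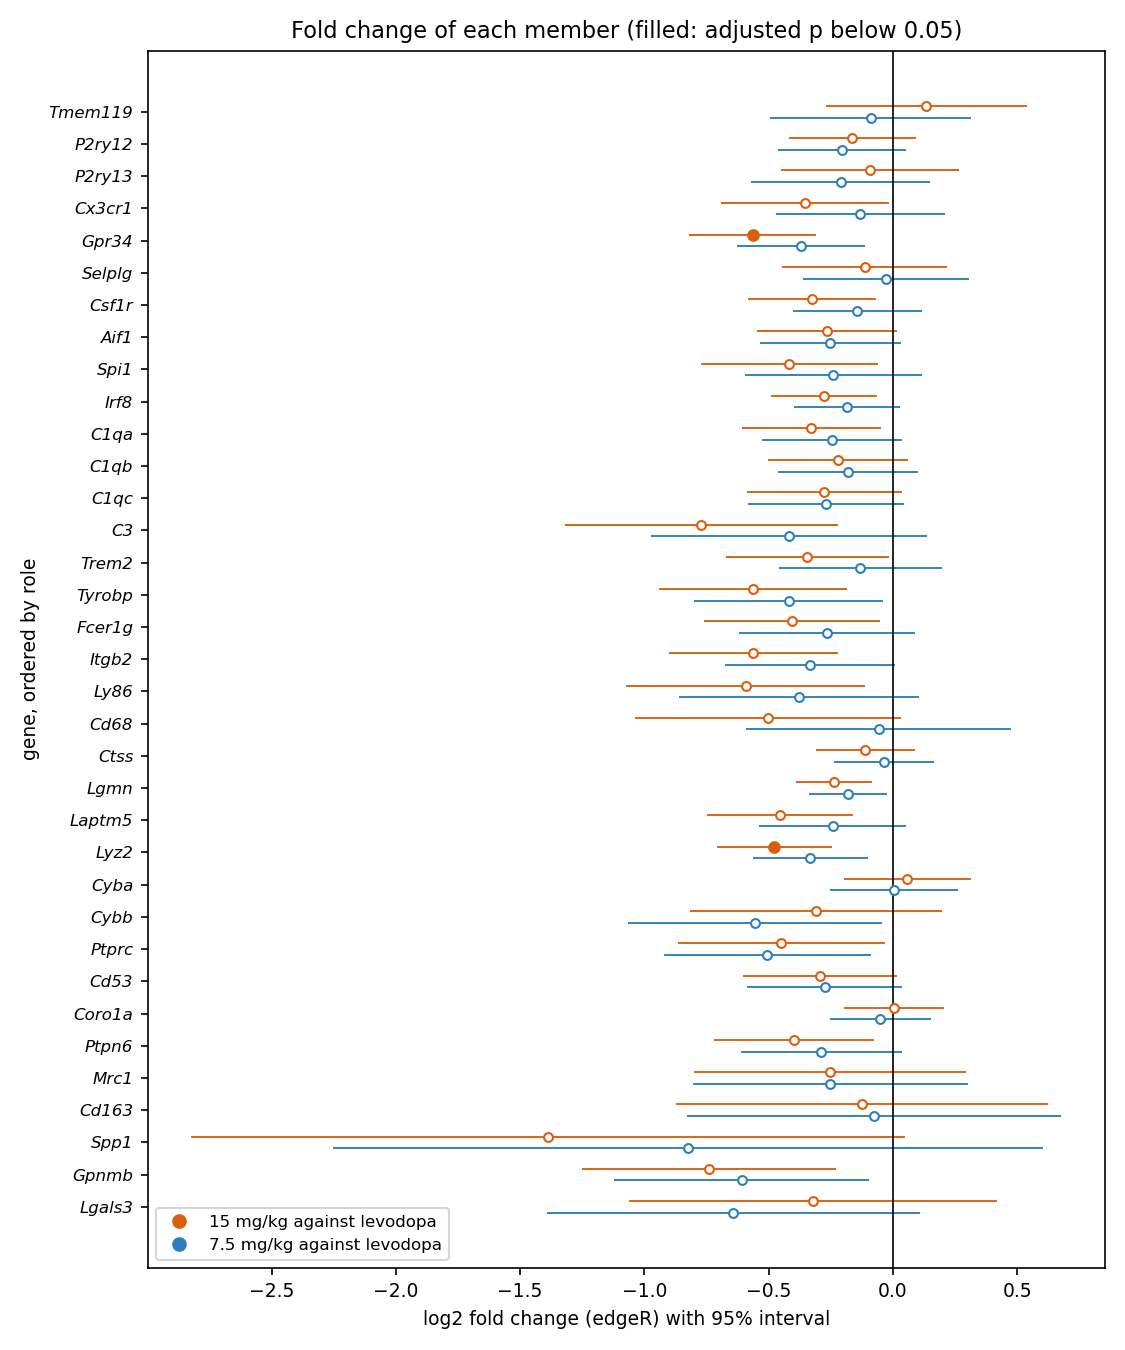
Log2 fold change (horizontal axis) of each of the 35 genes (vertical axis, ordered by role) with 95% intervals, for 15 mg/kg (orange) and 7.5 mg/kg trapidil (blue) against levodopa alone. Most points lie left of 0, most intervals at 7.5 mg/kg cross 0, and the filled points, Gpr34 and Lyz2 at 15 mg/kg, are those with an adjusted p below 0.05.

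The homeostatic microglia genes gave 1 fall among 8. Gpr34 levels were 14.3, 25.2, 12.3, 15.5 and 14.1 CPM with levodopa alone, spanned 9.24 to 15.4 CPM (median 12.8) at 7.5 mg/kg and 9.43 to 12.7 CPM (median 10.7) at 15 mg/kg. Levodopa replicate 2 lay far above the rest of its arm, and 8 of the 10 animals at 15 mg/kg lay below every levodopa animal. The arms met only through levodopa replicate 3, which lay inside the 15 mg/kg range. At 15 mg/kg its log2 fold change stood at -0.57 ± 0.13 (SE), with an adjusted p of 0.0267 from edgeR, and at -0.35 without levodopa replicate 2 (edgeR adjusted p = 0.158).

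Csf1r, the survival receptor, averaged 142.3 ± 12.3 CPM (SD, n = 10) at 15 mg/kg and 178.6 ± 39.3 CPM (SD, n = 5) with levodopa alone. Single animals had 177.2, 245.0, 170.0, 143.8 and 156.8 CPM with levodopa alone, 127.6 to 248.4 CPM (median 152.5) at 7.5 mg/kg and 122.3 to 165.1 CPM (median 141.7) at 15 mg/kg. The arms overlapped, 7.5 mg/kg replicate 1 being the highest of all, and the log2 fold change of -0.33 ± 0.13 did not pass (edgeR adjusted p = 0.148). It was -0.18 without levodopa replicate 2 (edgeR adjusted p = 0.558). The fractalkine receptor Cx3cr1 ranged from 17.1 to 27.8 CPM at 15 mg/kg, against 23.4 to 38.1 CPM with levodopa alone. Its level in 1 animal at 7.5 mg/kg, replicate 1, was 53.5 CPM, the highest of all.

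None of the other homeostatic genes passed the test. Aif1, which encodes the actin-bundling protein IBA1 used to stain microglia, averaged 15.4 ± 1.92 CPM at 15 mg/kg and 18.5 ± 5.64 CPM with levodopa alone. The ADP receptor gene P2ry12 averaged 12.1 ± 1.57 CPM at 15 mg/kg and 13.6 ± 3.67 CPM with levodopa alone. P2ry13, its relative, and Selplg, the P-selectin ligand, had log2 fold changes of -0.09 and -0.11, or 0.02 and 0.01 without levodopa replicate 2. Tmem119, a microglial membrane protein, went the other way, with 26.8 ± 7.44 CPM at 15 mg/kg and 24.5 ± 7.90 CPM with levodopa alone, a difference within its spread (log2 fold change 0.13 ± 0.20, or 0.27 without levodopa replicate 2). The highest Tmem119 level of all libraries, 42.4 CPM, was in replicate 10 at 15 mg/kg.

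**Figure D2:**
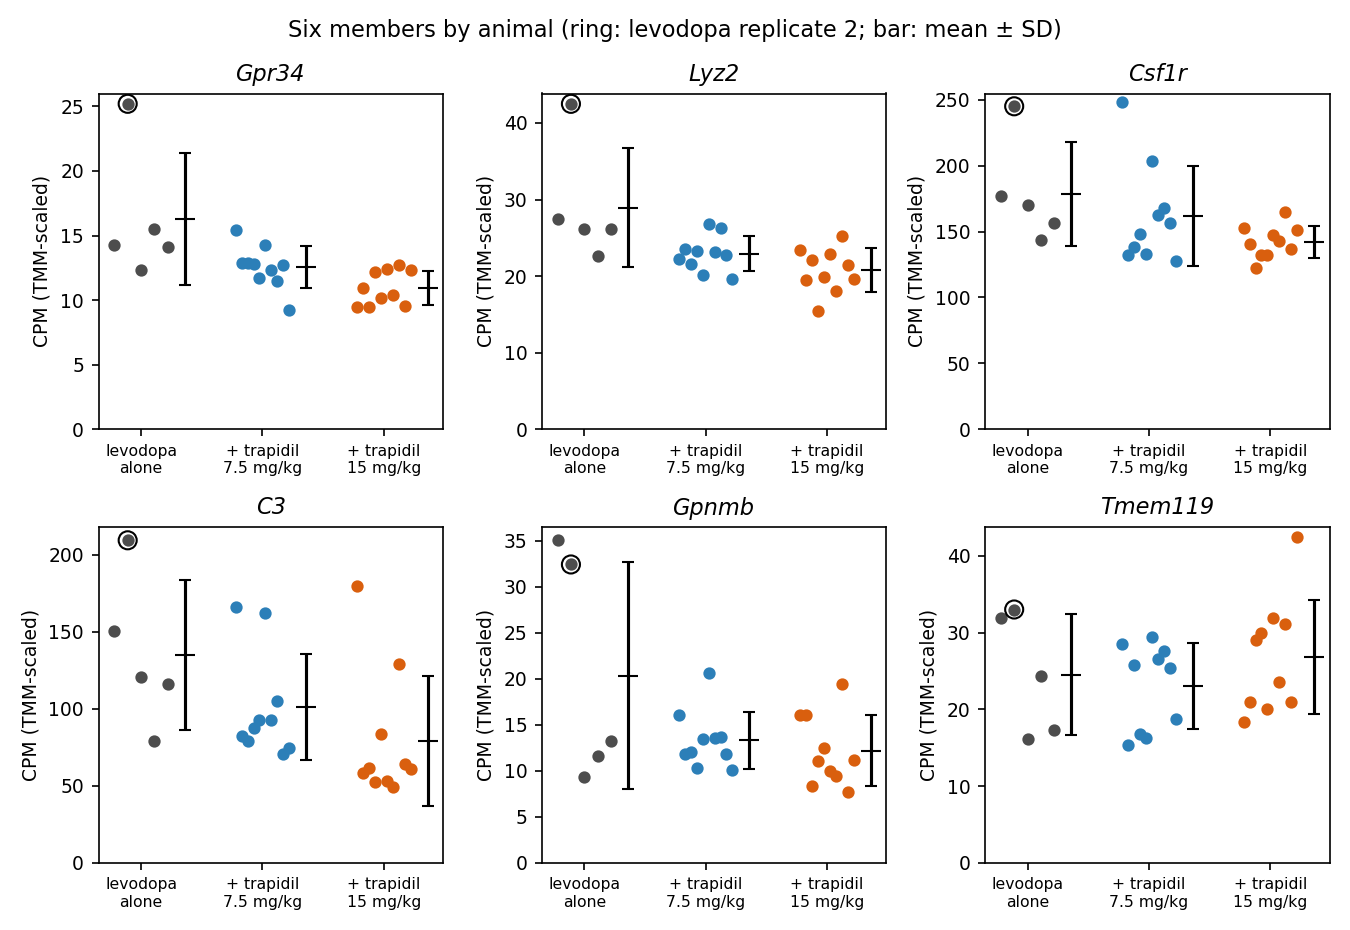
CPM (vertical axes, from 0) of Gpr34, Lyz2, Csf1r, C3, Gpnmb and Tmem119 in each animal, by arm (horizontal axes), with mean and SD beside the points. The ringed point, levodopa replicate 2, is the highest levodopa animal for all but Gpnmb, and the arms overlap for all 6 genes.

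Neither transcription factor passed the test. Spi1 spanned 4.28 to 7.69 CPM at 15 mg/kg, against 9.15, 10.1, 8.11, 5.91 and 6.32 CPM with levodopa alone. All 10 animals at 15 mg/kg lay below the levodopa mean of 7.91 CPM, and 6 of them below its lowest animal. Irf8 averaged 17.5 ± 2.49 CPM at 15 mg/kg and 21.1 ± 3.75 CPM with levodopa alone (log2 fold change -0.28 ± 0.10, edgeR adjusted p = 0.138).

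The complement genes encode the C1q chains C1qa, C1qb and C1qc, which start the classical pathway, and C3, on which all pathways converge. None of the 4 passed. C3 levels were 150.5, 209.4, 120.9, 79.0 and 115.8 CPM with levodopa alone, 70.8 to 166.2 CPM (median 89.8) at 7.5 mg/kg and 49.4 to 179.7 CPM (median 61.2) at 15 mg/kg. At 15 mg/kg, 7 of 10 animals lay below every levodopa animal, while replicates 1 and 8, at 179.7 and 128.8 CPM, lay among the highest levodopa values. The log2 fold change was -0.77 ± 0.27 (edgeR adjusted p = 0.111), and -0.56 (edgeR adjusted p = 0.407) without levodopa replicate 2. It passed without 15 mg/kg replicate 1 (-0.99, edgeR adjusted p = 0.0451) or without levodopa replicate 4 (-0.91, edgeR adjusted p = 0.0469). The C1q chains differed less, with log2 fold changes of -0.33, -0.22 and -0.28 for C1qa, C1qb and C1qc. These were -0.11, -0.02 and 0.02 without levodopa replicate 2, so that C1qc changed sign. C1qa averaged 72.0 ± 8.07 CPM at 15 mg/kg and 90.4 ± 29.9 CPM with levodopa alone, where replicate 2 alone reached 140.9 CPM.

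All 5 immune receptor and adaptor genes had unadjusted p-values below 0.05 at 15 mg/kg, and none passed after adjustment. Itgb2, the beta chain of leukocyte integrins, had 27.3, 29.4, 17.6, 15 and 15.5 CPM with levodopa alone, 13.2 to 26.4 CPM (median 15.2) at 7.5 mg/kg and 11 to 18.7 CPM (median 13.7) at 15 mg/kg. Levodopa replicates 1 and 2 stood above every animal at 15 mg/kg, and the other 3 lay within that range. Its log2 fold change was -0.56 ± 0.17 (edgeR adjusted p = 0.0736), and -0.41 without levodopa replicate 2. Tyrobp, the signalling adaptor of TREM2, averaged 13.3 ± 1.60 CPM at 15 mg/kg and 19.8 ± 6.90 CPM with levodopa alone (log2 fold change -0.56 ± 0.18, edgeR adjusted p = 0.0924; -0.37 without levodopa replicate 2). Trem2 itself, a lipid receptor, averaged 13.7 ± 1.43 CPM at 15 mg/kg and 17.4 ± 4.94 CPM with levodopa alone. Ly86, a partner of a Toll-like receptor relative on leukocytes, was low, with 1.34 to 3.10 CPM at 15 mg/kg and 2.03 to 5.68 CPM with levodopa alone (log2 fold change -0.59, or -0.28 without levodopa replicate 2). Fcer1g, the common chain of Fc receptors, had 21.6, 45.3, 18.7, 16.5 and 19.9 CPM with levodopa alone, 15.0 to 32.7 CPM (median 18.4) at 7.5 mg/kg and 15.8 to 20.5 CPM (median 18.4) at 15 mg/kg. Levodopa replicate 2 stood alone above the rest. The log2 fold change at 15 mg/kg of -0.41 ± 0.17 became -0.06 without levodopa replicate 2.

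Lyz2 was the 1 call among 5 lysosome and phagosome genes. Its levels were 27.4, 42.5, 26.2, 22.6 and 26.1 CPM with levodopa alone, 19.6 to 26.8 CPM (median 23.0) at 7.5 mg/kg and 15.5 to 25.3 CPM (median 20.7) at 15 mg/kg. Levodopa replicate 4 was the only levodopa animal inside the 15 mg/kg range, and 7 of 10 animals at 15 mg/kg lay below all 5. At 15 mg/kg its log2 fold change stood at -0.48 ± 0.11 (SE), with an adjusted p of 0.0359 from edgeR, and at -0.30 (edgeR adjusted p = 0.195) without levodopa replicate 2. The call was also lost without levodopa replicate 3, or 15 mg/kg replicate 2, 3, 7, 9 or 10 (edgeR adjusted p 0.0515 to 0.0608; log2 fold changes -0.51 to -0.46). The Gpr34 call was also lost without 15 mg/kg replicate 3 or 9 (edgeR adjusted p = 0.0544 and 0.0535).

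Laptm5, a lysosomal membrane protein of blood-derived cells, had 57.0, 72.7, 50.3, 40.8 and 45.6 CPM with levodopa alone, 33.8 to 76.1 CPM (median 39.5) at 7.5 mg/kg and 32.7 to 43.4 CPM (median 38.8) at 15 mg/kg. As with Lyz2, only levodopa replicate 4 lay inside the 15 mg/kg range, and 8 of 10 animals lay below all 5 (log2 fold change -0.45 ± 0.14, edgeR adjusted p = 0.085). Lgmn, the asparagine endopeptidase legumain, differed by a smaller amount with little spread, at 82.7 ± 4.37 CPM with 15 mg/kg and 97.4 ± 10.8 CPM with levodopa alone (log2 fold change -0.24 ± 0.08, edgeR adjusted p = 0.0864). The cysteine protease gene Ctss averaged 80.6 ± 5.98 CPM at 15 mg/kg and 87.1 ± 8.64 CPM with levodopa alone. Cd68, a macrophage lysosomal glycoprotein, was low, with 1.08 to 2.66 CPM at 15 mg/kg and 1.06 to 3.91 CPM with levodopa alone.

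The NADPH oxidase genes lay on opposite sides of 0. Cybb, the catalytic subunit, averaged 3.12 ± 0.583 CPM at 15 mg/kg and 3.87 ± 1.55 CPM with levodopa alone, whereas its membrane partner Cyba averaged 12.6 ± 1.44 CPM at 15 mg/kg and 12.2 ± 2.69 CPM with levodopa alone. Both differences were within the spread (log2 fold changes -0.31 ± 0.25 and 0.06 ± 0.13; -0.07 and 0.17 without levodopa replicate 2). Among leukocyte signalling genes, the phosphatase genes Ptprc (CD45) and Ptpn6 (SHP-1) and the tetraspanin gene Cd53 had log2 fold changes of -0.45, -0.40 and -0.29 and none passed. Their values were -0.19, -0.17 and -0.05 without levodopa replicate 2. Ptprc had 3.01 to 6.70 CPM at 15 mg/kg, against 5.07, 11.1, 6.92, 5.65 and 4.73 CPM with levodopa alone. Coro1a, an actin regulator of leukocytes that neurons also express, averaged 35.1 ± 3.31 CPM at 15 mg/kg and 35.0 ± 7.99 CPM with levodopa alone (log2 fold change 0.00 ± 0.10, or 0.02 without levodopa replicate 2).

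Markers of macrophages at the brain's borders were low. Mrc1, the mannose receptor, had 1.23 to 3.75 CPM at 15 mg/kg, against 1.93, 5.80, 3.52, 1.85 and 1.54 CPM with levodopa alone. Its log2 fold change of -0.25 ± 0.27 became 0.15 without levodopa replicate 2. Cd163, the haemoglobin scavenger receptor, stayed at or below 1.5 CPM in all 25 libraries, with 2 reads in the lowest.

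None of the 3 injury-associated genes passed. Spp1, the secreted protein osteopontin, had 10.5, 9.93, 1.13, 1.06 and 0.691 CPM with levodopa alone, 0.459 to 8.25 CPM (median 1.04) at 7.5 mg/kg and 0.350 to 5.50 CPM (median 0.912) at 15 mg/kg. Levodopa replicates 1 and 2 and replicates 1 and 6 at 7.5 mg/kg held the high values, and the ranges of the arms overlapped widely. Gpnmb, a glycoprotein of lipid-laden phagocytes, had 35.1, 32.4, 9.37, 11.6 and 13.2 CPM with levodopa alone, 10.1 to 20.6 CPM (median 12.7) at 7.5 mg/kg and 7.69 to 19.4 CPM (median 11.1) at 15 mg/kg. The same levodopa pair stood above all other animals, and the remaining 3 lay inside the 15 mg/kg range. The Gpnmb log2 fold change was -0.74 ± 0.25 (edgeR adjusted p = 0.1), and the Spp1 value was -1.39 ± 0.70, or -0.91 without levodopa replicate 2. Lgals3, the lectin galectin-3, had 0.535 to 2.37 CPM at 15 mg/kg and 0.239 to 3.64 CPM with levodopa alone.

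At 7.5 mg/kg, 0 of 35 members passed against levodopa alone (edgeR; 0.0283% of all genes did), and DESeq2 and limma-voom also called 0. The fold changes of 34 of 35 lay below 0, against 48.9% of all genes, with a median of -0.25, and 7 had an unadjusted p below 0.05, all lower (6.64% of all genes). The smallest p-value was that of Gpr34, whose log2 fold change stood at -0.37 ± 0.13 (adjusted p = 0.287 by edgeR). Spp1, Lgals3 and Gpnmb had the lowest fold changes (-0.82, -0.64 and -0.61), followed by Cybb (-0.56), with 1.12 to 4.97 CPM at 7.5 mg/kg and 2.21 to 6.29 CPM with levodopa alone. Without levodopa replicate 2 the value was -0.16 for Gpr34, -0.35 for Spp1, -0.58 for Lgals3, -0.37 for Gpnmb and -0.32 for Cybb. The median at 7.5 mg/kg was then -0.04 and 24 of 35 lay below 0 after rounding. The share of all genes below 0 was not computed for that fit.

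Between the doses, 0 of 35 members passed (edgeR; 0 also with DESeq2 and limma-voom; 0.0283% of all genes passed), and 0 had an unadjusted p below 0.05. The median log2 fold change of 15 against 7.5 mg/kg was -0.09, with 27 of 35 below 0 (51.2% of all genes). For Gpr34 the interval of this difference ran from -0.41 to 0.02, for Lyz2 from -0.34 to 0.05 and for Cd68, the member with the smallest p, from -0.89 to 0.00. With both doses joined and set against levodopa alone, Gpr34 was the 1 member to fall (log2 fold change -0.47 ± 0.11, edgeR adjusted p = 0.0479; 0.806% of all genes were called). The call held in 11 of 35 settings, among them 6 of the 25 fits that left out 1 library, and limma-voom lost it (adjusted p = 0.057). Without levodopa replicate 2 it was -0.26 (edgeR adjusted p = 0.346), and the median of the members was -0.12, against -0.28 with it. The edgeR F test over the 3 arms called 0 members (0.219% of all genes), and 11 had an unadjusted p below 0.05 (13.4% of all genes). No member's animals lay wholly below the levodopa arm at 15 mg/kg (0.410% of all genes did) or at 7.5 mg/kg (0.0636%).

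**Figure D3:**
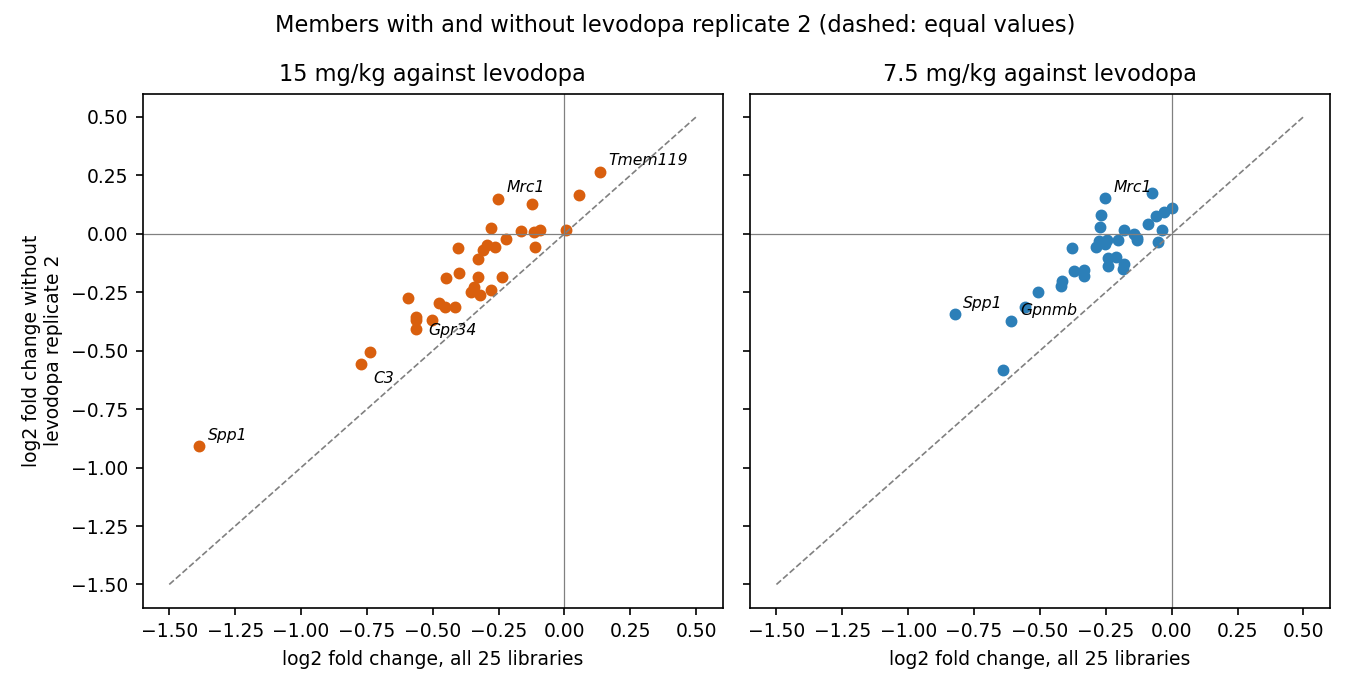
Log2 fold change of each of the 35 members with all 25 libraries (horizontal axis) and without levodopa replicate 2 (vertical axis), for 15 mg/kg (left) and 7.5 mg/kg (right) against levodopa alone; the dashed line marks equal values. The points lie above the dashed line, and 31 of 35 are nearer 0 without that library in each panel.

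Single animals carried high levels of many members at once. The summed level of the 35 was 1213.6, 1578.9, 996.1, 872.7 and 955.3 CPM with levodopa alone, 784.7 to 1363.8 CPM (median 899.4) at 7.5 mg/kg and 789.2 to 1051 CPM (median 860.8) at 15 mg/kg. Levodopa replicates 1 and 2 and replicates 1 and 6 at 7.5 mg/kg stood highest, and these 4 animals together held the highest level of 33 of the 35 members. The mean summed level was 888.6 ± 84.1 CPM at 15 mg/kg (SD, n = 10) and 1123.3 ± 284.1 CPM with levodopa alone (SD, n = 5), or 1009.4 ± 145.4 CPM without replicate 2. Spread within arms differed as well: 34 of the 35 members varied more with levodopa alone than at 15 mg/kg, with a median coefficient of variation of 13.7% at 15 mg/kg and 32.2% with levodopa alone. Leaving out levodopa replicate 2, the levodopa median was 18.9%, and 21 of the 35 varied more with levodopa alone. At 7.5 mg/kg the median coefficient was 24.7%. The share of all genes was not computed for these counts of spread or for the 33 of 35. They therefore cannot be called particular to the members.

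**Figure D4:**
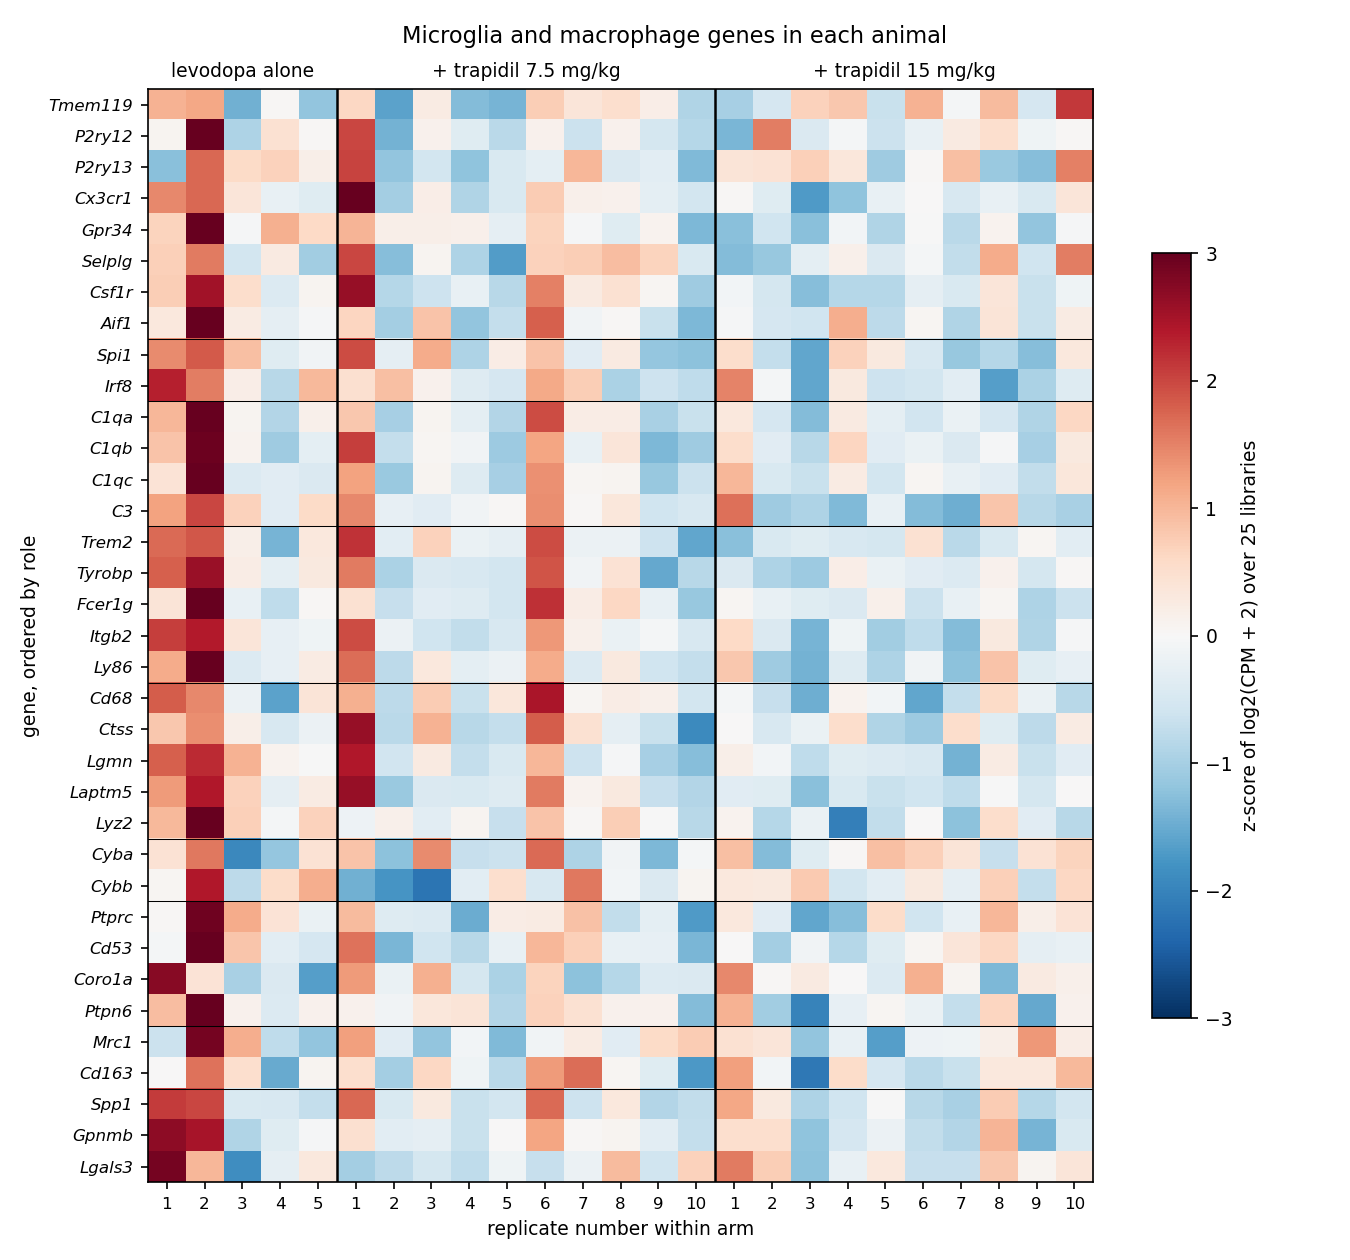
Each row is a gene, ordered by role, each column an animal by arm and replicate number, and the colour is the z-score of log2(CPM + 2) over all 25 libraries. Levodopa replicate 2 lies above the mean for all 35 genes, levodopa replicate 1 and 7.5 mg/kg replicate 1 for 32 each and 7.5 mg/kg replicate 6 for 31.

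Across animals, levels of the members were compared with that of Csf1r. All 34 others correlated positively with it over the 25 libraries (log2(CPM + 2), median Pearson r 0.72, all genes -0.03), and 28 passed a permutation test of 100000 resamples adjusted over all 14141 genes, against 30.0% of all genes. By Spearman's rho 16 passed, and the share of all genes was not computed for rho. Laptm5 was the closest of all genes (r = 0.96, rho = 0.87; adjusted permutation p = 0.000982 and 0.00786), followed among members by Cx3cr1 (r = 0.88), Itgb2 (0.87) and Ly86 (0.85). The nearest genes outside the list were Pld4, Cd38 and Slco2b1 (r = 0.93, 0.92 and 0.91). Lgals3 (r = 0.11), Cybb (0.17), Coro1a (0.25), Cyba (0.35), Tmem119 (0.38) and P2ry13 (0.46) did not pass.

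The correlations shared their libraries and their scaling, and extreme animals weighed on them. Without levodopa replicate 2 and 7.5 mg/kg replicate 1, the 2 libraries farthest from the median of Csf1r, all 34 stayed positive, the median r was 0.61 and 12 passed, against 1.24% of all genes. For Laptm5 r was then 0.90, while P2ry12, at 0.66 with all libraries, had 0.18. With arm means removed 28 passed, against 16.1% of all genes. By Spearman's rho only 1 passed without the 2 farthest libraries, and 16 passed with arm means removed. Within the 7.5 mg/kg arm 32 of 34 were positive (median r 0.77) and within the 15 mg/kg arm 31 of 34 (median r 0.46), with 0 passing the permutation test in either arm. Of all genes 0.0283% passed within the 7.5 mg/kg arm and 0 within the 15 mg/kg arm. The 0 members therefore cannot be told apart from the share of all genes.

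**Figure D5:**
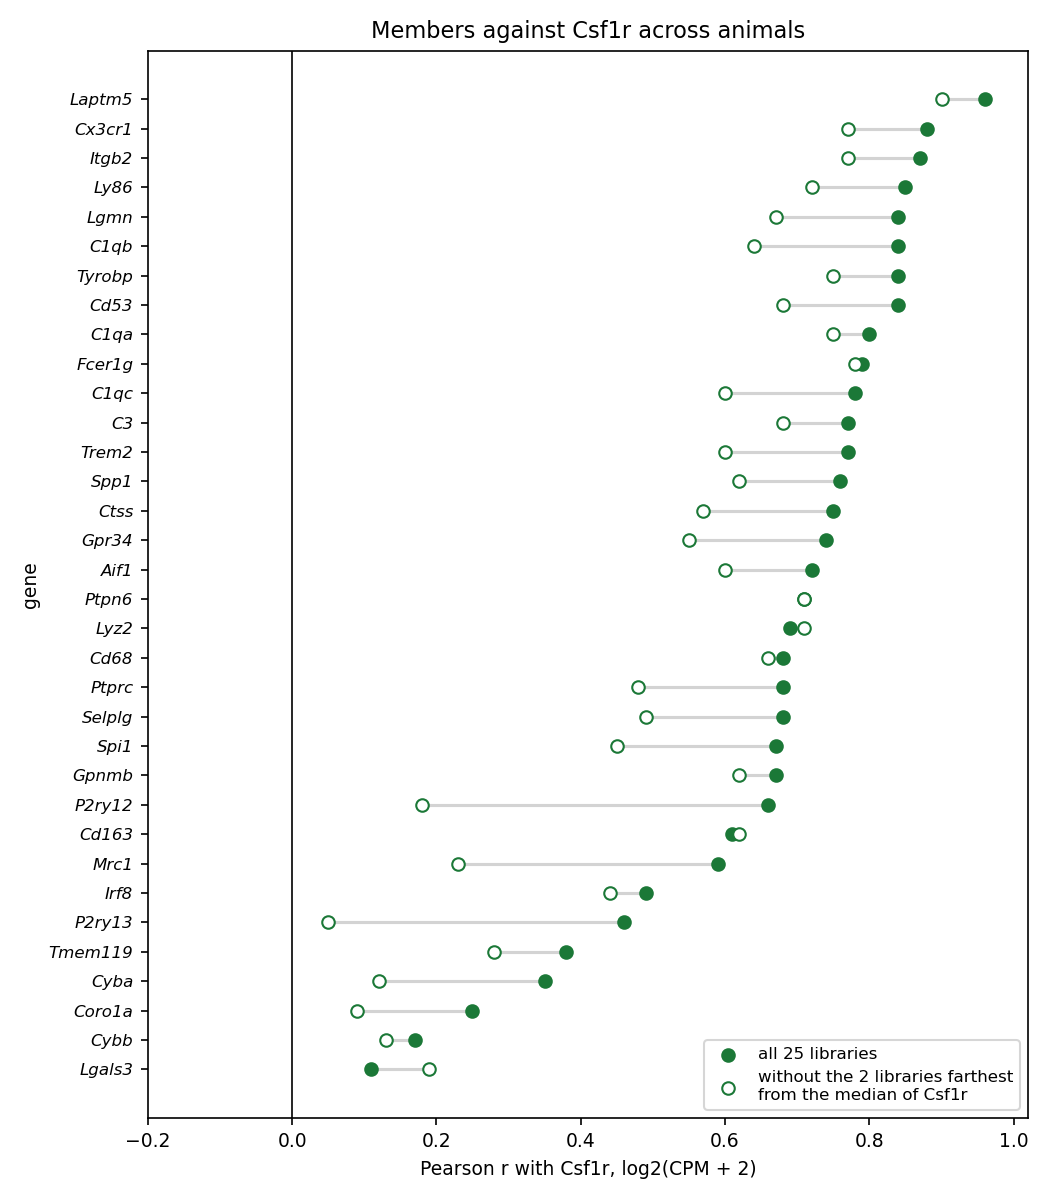
Pearson r (horizontal axis) of each member (vertical axis) with Csf1r, for all 25 libraries (filled) and without the 2 libraries farthest from the median of Csf1r (open). Laptm5 is highest at 0.96 and 0.90, and Lgals3, Cybb and Coro1a stay below 0.3 in both.

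Other genes of these cells were read from wider lists. Of 40 further microglia and macrophage genes tested, 0 passed at 15 mg/kg (edgeR; DESeq2 5, all lower, limma-voom 0), 36 lay below 0 and 22 had an unadjusted p below 0.05, 21 of them lower. Their median log2 fold change was -0.36, or -0.19 without levodopa replicate 2. The smallest p-value belonged to Tlr2, a receptor for bacterial lipoproteins, with 3.71 ± 0.763 CPM at 15 mg/kg and 6.17 ± 2.42 CPM with levodopa alone (log2 fold change -0.73 ± 0.21, edgeR adjusted p = 0.0638; -0.48 without levodopa replicate 2). At 7.5 mg/kg 0 of the 40 passed by any of the 3 tools, with 10 at an unadjusted p below 0.05, and 35 lay below 0.

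Genes of activated and disease-associated microglia were listed separately. Of 30 listed, 18 could be tested, 0 passed at 15 mg/kg (edgeR; DESeq2 0, limma-voom 1, Vim, higher), 8 had an unadjusted p below 0.05 (5 lower, 3 higher) and 12 lay below 0. The cytokine and chemokine genes Il1a, Il1b, Tnf, Il6, Ccl2, Ccl3 and Ccl4 and the markers Itgax, Clec7a and Cst7 were too low to test in striatal RNA at this depth. Ch25h, a cholesterol hydroxylase, had the smallest p-value at 7.5 mg/kg, with 1.53 ± 0.573 CPM, against 3.07 ± 1.29 CPM with levodopa alone (log2 fold change -0.995 ± 0.238, edgeR adjusted p = 0.135). DESeq2 and limma-voom called it lower, and without levodopa replicate 2 it was -0.72 (edgeR adjusted p = 0.514).

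Of 14 further complement genes tested, 0 passed at 15 mg/kg (edgeR; DESeq2 1, limma-voom 0; 1 at an unadjusted p below 0.05). Of these, 7 lay below 0, with a median of 0.01 (DESeq2 -0.19, limma-voom -0.02). Of 7 further border macrophage and monocyte genes, 0 passed at 15 mg/kg (edgeR; DESeq2 1, limma-voom 0; 2 at an unadjusted p below 0.05), and Vcan had the smallest p-value (log2 fold change -0.39 ± 0.12, edgeR adjusted p = 0.0792; -0.27 without levodopa replicate 2).

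The ligands and partners of microglial receptors gave 0 calls among 16 at 15 mg/kg with edgeR (DESeq2 1 and limma-voom 1, Csf1 in each), with 5 at an unadjusted p below 0.05 (4 lower, 1 higher). The 2 ligands of CSF1R lay on opposite sides of 0. Csf1 averaged 14.0 ± 2.62 CPM at 15 mg/kg and 20 ± 4.78 CPM with levodopa alone (log2 fold change -0.51 ± 0.15, edgeR adjusted p = 0.0669; -0.35 without levodopa replicate 2). Il34, which neurons are known to make, averaged 41.5 ± 2.75 CPM at 15 mg/kg and 35.7 ± 4.97 CPM with levodopa alone, where replicate 2 was at 26.9 CPM (log2 fold change 0.22 ± 0.07, edgeR adjusted p = 0.0915; 0.13 without levodopa replicate 2).

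Markers of other cells differed in both directions. At 15 mg/kg 6 of 12 oligodendrocyte markers fell (edgeR adjusted p below 0.05), all 12 lay below 0 with a median of -0.60, and their summed level was 6689 to 14081 CPM at 15 mg/kg and 10921 to 19950 CPM with levodopa alone. Without levodopa replicate 2, 0 of the 12 passed (20 of 14201 genes did) and the median was -0.50. Of 8 endothelial markers tested 1 fell, Slco1a4 (0 without levodopa replicate 2), and the summed level was 417.7 to 519.4 CPM at 15 mg/kg and 501.6 to 931.6 CPM with levodopa alone. All 8 lay below 0, 7 of them with an unadjusted edgeR p below 0.05. Cldn5 was listed at 0 in all libraries. None of 10 astrocyte markers passed (edgeR; DESeq2 and limma-voom 0; 3 at an unadjusted p below 0.05), at 3715 to 5398 CPM with 15 mg/kg and 4510 to 8560 CPM with levodopa alone. All 10 astrocyte markers lay below 0. Of 5 choroid plexus markers tested, Ttr fell at 15 mg/kg, and levodopa replicate 2 held 23.4 CPM of it, against a levodopa median of 0.298 CPM; without it 0 of the 5 passed. The median of the 5 was 0.60, with Kl, Folr1 and Clic6 above 0. All 7 ependymal markers lay above 0 (median 1.17; 0 passed with edgeR or DESeq2, 3 with limma-voom, 4 at an unadjusted p below 0.05), with summed means of 35.6 CPM at 15 mg/kg and 16.1 CPM with levodopa alone. Of 4 cortical neuron markers 3 lay below 0 (median -0.87; 0 passed with edgeR or DESeq2, 1 with limma-voom, 2 at an unadjusted p below 0.05). Spiny projection neuron markers gave 0 calls among 10 (edgeR; 0 at an unadjusted p below 0.05) and 8 pericyte markers 0 (2 at an unadjusted p below 0.05). All 8 pericyte markers and 2 of the 10 spiny projection neuron markers lay below 0. With all 25 libraries a lower shift was thus not particular to the microglia and macrophage genes. Without levodopa replicate 2 the mean summed levels with levodopa alone were 4814 CPM for astrocyte, 517.8 CPM for endothelial and 158.9 CPM for pericyte markers. At 15 mg/kg these means were 4648.9, 481.4 and 152.2 CPM. The part of all these other cells in the members' differences was not tested. Blood leukocyte markers were near 0: the 12 lymphocyte markers found summed to 2.14 to 3.49 CPM at 15 mg/kg and 2.11 to 3.45 CPM with levodopa alone, and the 8 neutrophil markers to at most 1.31 CPM, with Elane at 0 throughout.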

How the data were processed

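Polyadenylated RNA from the lesioned striatum of 25 rats was sequenced, 1 library per rat as far as the labels tell. The authors deposited raw read counts per gene. Per the submitters' processing notes, the tools were FastQC, STAR and HTSeq and the genome was Rnor_6.0. The sources used here do not give versions, annotation or strand setting, so reads of overlapping or antisense genes cannot be told apart. No batch was given.

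Genes were kept by edgeR's filterByExpr (minimum count 10, by arm), scaled by TMM, and fitted over all 25 libraries with arm as the factor using edgeR 4.0.16 (R 4.3.3), quasi-likelihood tests being two-sided with Benjamini-Hochberg adjustment over 14142 genes and a threshold of 0.05. The common biological coefficient of variation was 0.139. Errors of fold changes are standard errors. CPM were computed from the deposited counts with TMM-scaled totals, and logs used a pseudocount of 2. Correlations used 100000 permutations (numpy 2.4.6). Alternatives used DESeq2 1.42.0, limma 3.58.1 and sva 3.50.0, other normalizations, filters and thresholds, a replicate block, and libraries left out. The other tools and the left-out library for the wider lists, and the coefficients of variation without it, were chosen after seeing the data. Steps were tested on simulated data. Promoters came from RefSeq (GRCr8), whose coordinates were not joined to the counts.

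The members and lists were chosen with earlier results of these data known. Full statistics were given to members called in any contrast and, per role, to the member with the smallest p and the most abundant member. In the other lists they were given to called genes or the smallest p. No 2 libraries of an arm agreed within sampling noise (lowest chi-square per degree of freedom 12, 4.92 and 4.83 for levodopa, 7.5 and 15 mg/kg). Itgam was not analysed here. A result for 1 gene of the further complement list is not reported here. P-values measure the spread between these animals.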

Additional observations from a re-analysis of the deposited data

Results flagged for a closer look

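Within an arm of 5 or 10 animals, a highest or lowest value was singled out where its gap to the next animal exceeded Dixon's 95% critical value. Of 108 groups checked, 11 were singled out (10.2%). The critical value gives about 1 in 20 for independent groups with normal spread. These groups shared the same animals, and the members varied together. No excess over chance can therefore be read from this share. In 7 of the 11 the animal was levodopa replicate 2, far above the other 4: Gpr34 at 25.2 CPM, Lyz2 at 42.5, P2ry12 at 19.9, Aif1 at 28.6, C1qc at 65.0, Fcer1g at 45.3 and Cd53 at 19.8 CPM. At 7.5 mg/kg, replicate 1 stood above the other 9 animals for P2ry12 at 16.8 CPM and Cx3cr1 at 53.5 CPM, and replicate 6 for Fcer1g at 32.7 CPM and Cd68 at 4.68 CPM.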

How the results depend on the processing

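The count of members that fell at 15 mg/kg (2) was 6 at a threshold of 0.10, 4 with DESeq2, 5 with only the arms compared in the fit, and 0 with a replicate block, with 2 surrogate variables, and with levodopa replicate 2 and 7.5 mg/kg replicate 1 left out together. Leaving out 1 animal gave 0 to 9: it was 0 without levodopa replicate 2 or 15 mg/kg replicate 3 or 9, 5 without 7.5 mg/kg replicate 1 and 9 without levodopa replicate 4. The count over all genes moved too, being 185 as reported, 862 at 0.10, 649 with DESeq2, 448 with only the arms compared, 20 without levodopa replicate 2, 639 without 7.5 mg/kg replicate 1 and 894 without levodopa replicate 4. It was 51 and 54 without 15 mg/kg replicate 3 and 9. With the replicate block no gene at all was called (0), against 40 with 2 surrogate variables and 76 with the pair of animals left out. The count for both doses (1) was 0 without the low-count filter, with the replicate block, with 2 surrogate variables and with that pair left out, 2 with at least 1 CPM in 5 libraries, at 0.10, with DESeq2 and with limma-voom (there Lgmn and Laptm5, and not Gpr34), and 0 to 5 with 1 animal left out. Over all genes the count for both doses moved as well, from 114 as reported. That count was 82 without the low-count filter, 6 with the replicate block, 84 with 2 surrogate variables and 65 with that pair left out. With at least 1 CPM in 5 libraries it was 131, with DESeq2 427 and with limma-voom 708, and it also rose at 0.10. Counts of members at 7.5 mg/kg and between doses were 0 under every alternative run. With 2 surrogate variables the members' medians turned to 0.025 (7.5 mg/kg), 0.028 (15 mg/kg), 0.025 (between doses) and 0.028 (both doses). With limma-voom they were -0.161 (7.5 mg/kg), -0.191 (15 mg/kg), 0.007 (between doses) and -0.172 (both doses). As reported they were -0.245, -0.327, -0.085 and -0.28 in that order. The causes were not tested. With 2 surrogate variables 15 of the 35 members lay below 0 at each dose against levodopa alone. In the fit reported above, 32 did at 15 mg/kg and 34 at 7.5 mg/kg. Sign changes of single members are listed below only for the 14 members chosen for full statistics. Among these 14, the sign changes with surrogate variables were Csf1r (0.066), Fcer1g (0.083), Coro1a (0.031) and Mrc1 (0.055) at 7.5 mg/kg. At 15 mg/kg they were Fcer1g (0.053) and Mrc1 (0.089). With the pair of animals left out they were Fcer1g (0.068) and Mrc1 (0.08) at 7.5 mg/kg and Mrc1 (0.151) at 15 mg/kg. Mrc1 at 15 mg/kg had 0.035 with limma-voom, Cyba at 7.5 mg/kg -0.002 with upper quartile scaling and -0.006 with the replicate block, and Coro1a at 7.5 mg/kg 0.003 with the block. Some ranges of these 14 crossed 0 with 1 animal left out. At 15 mg/kg these ran from -0.065 to 0.147 for Coro1a, -0.035 to 0.166 for Cyba and -0.414 to 0.15 for Mrc1. At 7.5 mg/kg they ran from -0.12 to 0.093 for Coro1a and -0.09 to 0.111 for Cyba. For Fcer1g they ran there from -0.38 to 0.081 and for Mrc1 from -0.413 to 0.151. Members outside the 14 also changed sign without levodopa replicate 2, such as C1qc (0.023 at 15 mg/kg and 0.029 at 7.5 mg/kg). Over 20 same-numbered pairs of animals the correlation of deviations was -0.42 to 0.21, with 8 above 0.1. Differently numbered pairs were not compared, so this cannot settle whether replicate numbers paired the animals. Members that correlated with Csf1r by Pearson's r numbered 28, 12 without the 2 farthest libraries and 0 within either trapidil arm. By Spearman's rho these counts were 16, 1 and 0. In SDs of the levodopa arm the summed level differed by -0.83 at 15 mg/kg (-1.04 to -0.66 with 1 animal left out) and -0.55 at 7.5 mg/kg (-0.77 to -0.29). The SD was recomputed for each set of animals, so these ranges hide shifts in CPM. Without levodopa replicate 2 the levodopa SD went from 284.1 to 145.4 CPM. The levodopa mean then went from 1123.3 to 1009.4 CPM, against 888.6 CPM at 15 mg/kg. The 5 levodopa animals and the low counts of Cd163, Spp1, Lgals3, Cd68 and Ly86 limit the precision.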
